A study of Mus musculus with 18 samples.

Results

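The 9 genes followed here in mouse liver mark B cells and the antibody-secreting plasma cells they become: Cd79a, Cd79b, Ms4a1, Cd22, Pax5, Jchain, Ighm, Igkc and Mzb1. They were chosen by name, as B lineage markers, and are 9 of the 35441 genes in the count table. All 9 passed the filter of more than 100 reads summed over the 18 livers, as did 14533 genes in all. RNA was sequenced from livers of male mice in 6 groups of 3. These were wild-type (WT) mice, Lipa-/- mice left untreated, and Lipa-/- mice treated by gene transfer. Livers were collected 12 or 34 weeks after injection, and the labels give these times as 3 and 8 months. Injection was at a young adult age, so these times are not ages. The Lipa-/- mice lack exon 4 of Lipa, the gene for lysosomal acid lipase, removed in every tissue after a cross with CMV-Cre mice on a C57/BL6N background. The treated Lipa-/- mice had received rAAV8.hAAT.LIPA by tail vein, a recombinant AAV8 vector that carries human LIPA under the hAAT promoter, which is active in hepatocytes. That promoter is not one of B cells or other blood cells. Most untreated Lipa-/- mice of the later arm were collected at humane endpoints before its end, so the untreated livers called 34-week here may be of earlier ages, and the labels do not give the age of each. Time and the study's animal code cannot be told apart, since the 34-week mice carry a different code from the 12-week mice. Among the 12-week mice, untreated Lipa-/- mouse 5 has a code of its own; it was the lowest of its group for Igkc and Jchain, and without it the same 5 members rose at that time. Each library is 1 mouse.

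A B cell carries a membrane antibody of heavy and light chains, and the Cd79a and Cd79b proteins pass its signal into the cell. Ms4a1 encodes CD20, Cd22 encodes an inhibitory co-receptor that binds sialic acid, and Pax5 encodes the transcription factor that holds cells in the B cell state and is lost when they become plasma cells. A plasma cell secretes antibody: Ighm and Igkc are the constant regions of the IgM heavy chain and the kappa light chain, Jchain joins IgM and IgA into polymers, and Mzb1 is a chaperone of the endoplasmic reticulum that assists their assembly. In adult liver, B cells are a minor population of the blood and sinusoids, and polymeric IgA is carried into bile. In a whole liver, fewer cells of a type and less RNA per cell cannot be told apart.

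The 18 libraries held between 17527824 and 25833059 reads. Levels of a gene between mice are given in CPM, read counts as parts of the library total scaled by TMM factors, which ran from 0.587 to 1.69. Levels of different genes are set side by side in TPM, which also take gene length into account. Lipa itself lay between 202 and 323 CPM in the 6 WT livers and between 16.7 and 37.0 CPM in the 12 Lipa-/- livers. Reads of the human LIPA transgene were 0 in all untreated Lipa-/- livers and lay between 523 and 2746 CPM in the 6 treated livers. One library stood apart for the genes described here: WT mouse 2 at 34 weeks held 84.1 CPM of Igkc, against 8.26 and 5.45 CPM in the other WT mice of that time, and it also held 23 reads of the human transgene, at 0.906 CPM, where the other WT libraries held 0 or 1. Values without it are given beside the results that it moved. Hepatocyte markers summed to between 22150 and 58130 CPM in the untreated Lipa-/- livers and to between 54020 and 110700 CPM in the other 12.

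Sequences are shown for the genes on which the results turn. The antibody reads were identified by their constant regions, and the first 120 bases of the first constant exon of the kappa light chain and of the IgM and IgA heavy chains (GRCm39, coding strand) are as follows, at chr6:70703419-70703538 on the plus strand, chr12:113386231-113386350 on the minus strand and chr12:113223737-113223856 on the minus strand.

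Igkc: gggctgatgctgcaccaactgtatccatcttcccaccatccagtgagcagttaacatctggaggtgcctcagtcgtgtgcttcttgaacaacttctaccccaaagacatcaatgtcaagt
Ighm: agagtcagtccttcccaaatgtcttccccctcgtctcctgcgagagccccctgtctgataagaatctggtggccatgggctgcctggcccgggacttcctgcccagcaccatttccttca
Igha: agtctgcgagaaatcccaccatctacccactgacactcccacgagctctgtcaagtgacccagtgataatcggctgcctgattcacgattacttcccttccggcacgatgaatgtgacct

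None of the runs of 31 bases in the Igkc, Ighm or Igha transcripts occurred in another gene, so their reads could be told from those of their neighbours. The IgG subclasses were less distinct. The first exons of Ighg2b (chr12:113271263-113271553) and Ighg2c (chr12:113252262-113252552), both on the minus strand, matched at 255 of 291 bases, or 87.6%, and the 36 bases that differ are in capitals.

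Ighg2b: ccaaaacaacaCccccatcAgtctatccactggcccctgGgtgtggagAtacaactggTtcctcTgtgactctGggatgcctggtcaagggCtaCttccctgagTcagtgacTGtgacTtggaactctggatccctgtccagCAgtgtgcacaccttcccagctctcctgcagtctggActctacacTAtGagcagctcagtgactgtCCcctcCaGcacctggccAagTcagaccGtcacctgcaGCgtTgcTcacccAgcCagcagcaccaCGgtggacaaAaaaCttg
Ighg2c: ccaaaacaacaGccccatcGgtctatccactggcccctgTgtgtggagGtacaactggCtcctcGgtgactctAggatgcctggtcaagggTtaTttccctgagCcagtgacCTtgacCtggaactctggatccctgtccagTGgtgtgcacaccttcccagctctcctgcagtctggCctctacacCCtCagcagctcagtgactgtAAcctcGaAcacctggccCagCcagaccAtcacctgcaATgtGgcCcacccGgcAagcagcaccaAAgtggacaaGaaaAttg

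The longest run the pair shared was 34 bases, and 15.0% of the 31-base runs of Ighg2c occurred in another gene, mainly Ighg2b, so values of single IgG subclasses carry that uncertainty. Mzb1 shared 46.5% of its 31-base runs with another gene model, Gm50318, and its level is likewise uncertain. Iglc2 and Iglc3 shared 19.6% and 25.1% of theirs, each mainly with the other.

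Promoters are shown for 3 members that behaved differently in the untreated Lipa-/- livers: Cd22 and Jchain, which rose, and Cd79a, which did not pass the test. RefSeq (GRCm38.p6) gave a window of 250 bases before to 50 bases after the start for 4 of the 9 members. The windows were searched on both strands for ATGCAAAT, the octamer of antibody gene promoters, for CCCNNGGG, the core of EBF sites, and for GAGGAA, the core of PU.1 sites. Matches are in capitals. The windows lie at chr7:24897247-24897546 on the plus strand (Cd79a), chr7:30878979-30879278 on the minus strand (Cd22) and chr5:88527848-88528147 on the minus strand (Jchain).

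Cd79a: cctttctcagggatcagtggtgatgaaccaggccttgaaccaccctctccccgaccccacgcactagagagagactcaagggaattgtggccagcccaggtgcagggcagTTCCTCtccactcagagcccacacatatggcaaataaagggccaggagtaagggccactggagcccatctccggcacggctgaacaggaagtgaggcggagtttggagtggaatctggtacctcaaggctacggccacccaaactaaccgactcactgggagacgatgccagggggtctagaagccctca
Cd22: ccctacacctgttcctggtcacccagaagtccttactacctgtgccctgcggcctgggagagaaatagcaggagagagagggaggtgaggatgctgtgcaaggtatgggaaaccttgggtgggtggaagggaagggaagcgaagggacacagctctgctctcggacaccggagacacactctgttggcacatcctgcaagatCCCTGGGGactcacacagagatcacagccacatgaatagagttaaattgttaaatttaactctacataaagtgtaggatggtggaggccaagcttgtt
Jchain: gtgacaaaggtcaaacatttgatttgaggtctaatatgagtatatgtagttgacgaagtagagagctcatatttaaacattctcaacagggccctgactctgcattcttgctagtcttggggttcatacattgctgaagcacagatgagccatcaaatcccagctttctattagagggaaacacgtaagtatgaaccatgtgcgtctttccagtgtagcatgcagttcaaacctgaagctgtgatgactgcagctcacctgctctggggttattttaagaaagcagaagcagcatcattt

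The Cd79a window held 1 match to the PU.1 core, on the other strand, and the Cd22 window 1 match to the EBF core, while none of the 3 motifs occurred in the Jchain or Pax5 window. Among 32851 mouse promoter windows of the same length, 1.74% held the octamer, 13.7% the EBF core and 28.3% the PU.1 core, so these matches are a description of the letters only.

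The first question was whether the liver of untreated Lipa-/- mice holds more B lineage RNA than the WT liver. The members did not move together. At 12 weeks, Igkc, Jchain, Cd22, Mzb1 and Cd79b rose in Lipa-/- livers, while Cd79a, Ms4a1, Pax5 and Ighm did not pass the test. At 34 weeks Igkc, Jchain and Cd22 rose and the other 6 members did not pass the test. Levels of the membrane genes are described first and those of the secretory genes after them.

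Cd22, the sialic acid-binding inhibitory co-receptor (chr7:30564827-30579767, minus strand, GRCm39), showed the clearest separation between genotypes. At 12 weeks its level was 0.697, 0.574 and 0.524 CPM in the 3 WT livers, and 19.1, 18.8 and 7.96 CPM in the 3 Lipa-/- livers. At 34 weeks it was 1.0, 1.93 and 0.934 CPM in WT livers, and 15.3, 20.2 and 5.70 CPM in Lipa-/- livers. Every Lipa-/- liver lay above every WT liver at both times. The rise was 25.3-fold at 12 weeks (log2 fold change 4.66 ± 0.53, mean ± SE, adjusted p = 3.85e-06) and 10.5-fold at 34 weeks (3.40 ± 0.48, adjusted p = 2.59e-05). In treated Lipa-/- livers Cd22 stood at 2.53, 3.97 and 1.76 CPM at 12 weeks and at 2.52, 1.58 and 2.06 CPM at 34 weeks. All treated livers lay below all untreated Lipa-/- livers, and the 12-week treated livers lay above the 12-week WT livers.

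Cd79a (chr7:24596740-24601622, plus strand) and Cd79b (chr11:106202167-106205588, minus strand), the signalling pair of the B cell receptor, stayed below 5 CPM and rested on 4 to 103 reads a library. Cd79a stood at 0.965, 0.718 and 0.576 CPM in WT livers at 12 weeks, at 0.958, 1.4 and 1.33 CPM in Lipa-/- livers, and at 0.486, 4.62 and 2.61 CPM in treated livers. At 34 weeks it stood at 0.885, 2.68 and 0.662 CPM in WT livers, at 3.25, 3.05 and 0.882 CPM in Lipa-/- livers, and at 1.42, 1.80 and 1.83 CPM in treated livers. No pair of neighbouring groups in its order of levels was free of overlap. Cd79b stood at 0.643, 0.861 and 0.209 CPM in WT livers at 12 weeks, at 1.10, 1.75 and 2.06 CPM in Lipa-/- livers, and at 3.01, 4.78 and 2.99 CPM in treated livers. In CPM the 3 groups did not overlap at that time, and the treated livers were the highest. In TPM the treated livers, at 1.42 to 3.20, overlapped with the untreated Lipa-/- livers, at 1.30 to 2.69. The difference between these 2 groups was not called by edgeR (adjusted p = 0.0582). At 34 weeks Cd79b lay between 0.588 and 2.40 CPM in all 9 livers, with overlap between all 3 groups.

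Ms4a1, the gene for CD20 (chr19:11227039-11243605, minus strand), rested on 1 to 41 reads a library. At 12 weeks it stood at 0.697, 0.574 and 0.314 CPM in WT livers, at 0.390, 0.388 and 0.202 CPM in Lipa-/- livers, and at 1.46, 2.07 and 2.15 CPM in treated livers. The treated livers were above all others of that time, and the untreated Lipa-/- livers overlapped with WT. At 34 weeks the untreated Lipa-/- livers spread from 0.0368 to 1.29 CPM, the WT livers from 0.623 to 1.62 CPM, and the treated livers from 0.934 to 1.04 CPM. No 34-week difference in Ms4a1 was called with all mice kept. Without untreated mouse 4, edgeR called it lower in Lipa-/- than in WT livers (log2 fold change -2.28, adjusted p = 0.0184). It was then also called higher in treated than in untreated Lipa-/- livers (2.30, adjusted p = 0.0207 by edgeR).

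Pax5, the B cell identity factor (chr4:44524757-44710487, minus strand), had 0 to 34 reads a library, and 2 of the 3 treated livers at 12 weeks had 0. Its level lay between 0.0479 and 0.322 CPM in WT livers at 12 weeks, between 0.121 and 0.177 CPM in Lipa-/- livers, and at 0, 0 and 0.230 CPM in treated livers. No fold is given for that group, since its level was at or below that of 3 reads. At 34 weeks Pax5 was between 0.295 and 1.34 CPM in WT livers, between 0.0735 and 0.599 CPM in Lipa-/- livers, and between 0.272 and 0.772 CPM in treated livers. No difference in Pax5 between genotypes was detectable at this depth.

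Igkc, the only functional kappa constant region (chr6:70703419-70703950, plus strand), was the most abundant member per length in 5 of the 6 groups. At 12 weeks it stood at 1.88, 5.70 and 2.36 CPM in WT livers, at 107, 254 and 165 CPM in Lipa-/- livers, and at 27.6, 57.0 and 16.6 CPM in treated livers. Its 34-week levels were 8.26, 84.1 and 5.45 CPM in WT livers, 154, 316 and 140.1 CPM in Lipa-/- livers, and 15.9, 15.6 and 27.2 CPM in treated livers. All 6 untreated Lipa-/- livers lay above all other livers. The rise over WT was 52.7-fold at 12 weeks (log2 fold change 5.72 ± 0.94, adjusted p = 0.000149) and 6.23-fold at 34 weeks (2.64 ± 0.80, adjusted p = 0.0125), and without WT mouse 2 the 34-week log2 fold change was 4.90 ± 0.69 (adjusted p = 3.91e-05). The 34-week call was lost without Lipa-/- mouse 5 (log2 fold change 2.18, adjusted p = 0.0502). It was also lost with only the groups compared in the edgeR fit (adjusted p = 0.0529).

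Jchain, which links IgM and IgA into polymers (chr5:88667668-88675750, minus strand), followed Igkc with more overlap. At 12 weeks it stood at 1.13, 2.58 and 1.10 CPM in WT livers, at 11.1, 54.8 and 38.0 CPM in Lipa-/- livers, and at 28.3, 22.8 and 6.59 CPM in treated livers. The treated livers overlapped with the untreated Lipa-/- livers and lay above WT. At 34 weeks Jchain stood at 2.71, 13.3 and 1.32 CPM in WT livers, at 15.4, 37.7 and 27.2 CPM in Lipa-/- livers, and at 4.19, 3.50 and 4.24 CPM in treated livers. The untreated Lipa-/- livers were then the highest, without overlap. The rise over WT was 21.4-fold at 12 weeks (4.42 ± 0.82, adjusted p = 0.000422) and 4.6-fold at 34 weeks (2.2 ± 0.72, adjusted p = 0.0191), with a log2 fold change of 3.75 ± 0.74 at 34 weeks without WT mouse 2 (adjusted p = 0.000755). Without Lipa-/- mouse 5, WT mouse 1 or WT mouse 3, the 34-week log2 fold change was 1.88, 1.87 or 1.73 and no longer passed (adjusted p = 0.0667, 0.0751 and 0.0670).

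Mzb1, the antibody chaperone, had 1 to 47 reads a library. The 12-week WT livers held 4, 1 and 3 of its reads, and WT mice 1 and 3 at 34 weeks held 3 and 1, so its differences from WT are fitted values near the level of 3 reads and set no size. At 12 weeks it stood at 0.214, 0.0479 and 0.157 CPM in WT livers, at 1.03, 1.83 and 1.13 CPM in Lipa-/- livers, and at 2.62, 2.34 and 0.690 CPM in treated livers. The 34-week livers stood at 0.177, 1.77 and 0.0389 CPM in WT livers, at 0.725, 1.31 and 1.54 CPM in Lipa-/- livers, and at 0.285, 0.382 and 0.389 CPM in treated livers. The highest value of the 34-week livers was that of WT mouse 2. Without that mouse the 34-week difference between Lipa-/- and WT livers changed from a log2 fold change of 0.81 ± 0.80 (adjusted p = 0.427) to 3.52 ± 0.80 (adjusted p = 0.00211). With that mouse kept, limma also called Mzb1 higher in the 34-week Lipa-/- livers.

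Ighm, the IgM constant region (chr12:113382178-113386350, minus strand), did not follow the other secretory genes. At 12 weeks it stood at 47.1, 47.3 and 28.7 CPM in WT livers, at 27.0, 31.1 and 47.2 CPM in Lipa-/- livers, and at 15.6, 19.0 and 29.1 CPM in treated livers. The 34-week livers stood at 45.9, 118 and 53.0 CPM in WT livers, at 112, 112 and 15.7 CPM in Lipa-/- livers, and at 119, 79.4 and 37.2 CPM in treated livers. All 3 groups overlapped at each time. Its log2 fold change in Lipa-/- over WT livers was -0.23 ± 0.57 at 12 weeks (adjusted p = 0.783), and 0.26 when libraries were scaled to total counts. At 34 weeks it was 0.14 (adjusted p = 0.857).

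**Figure D1:**
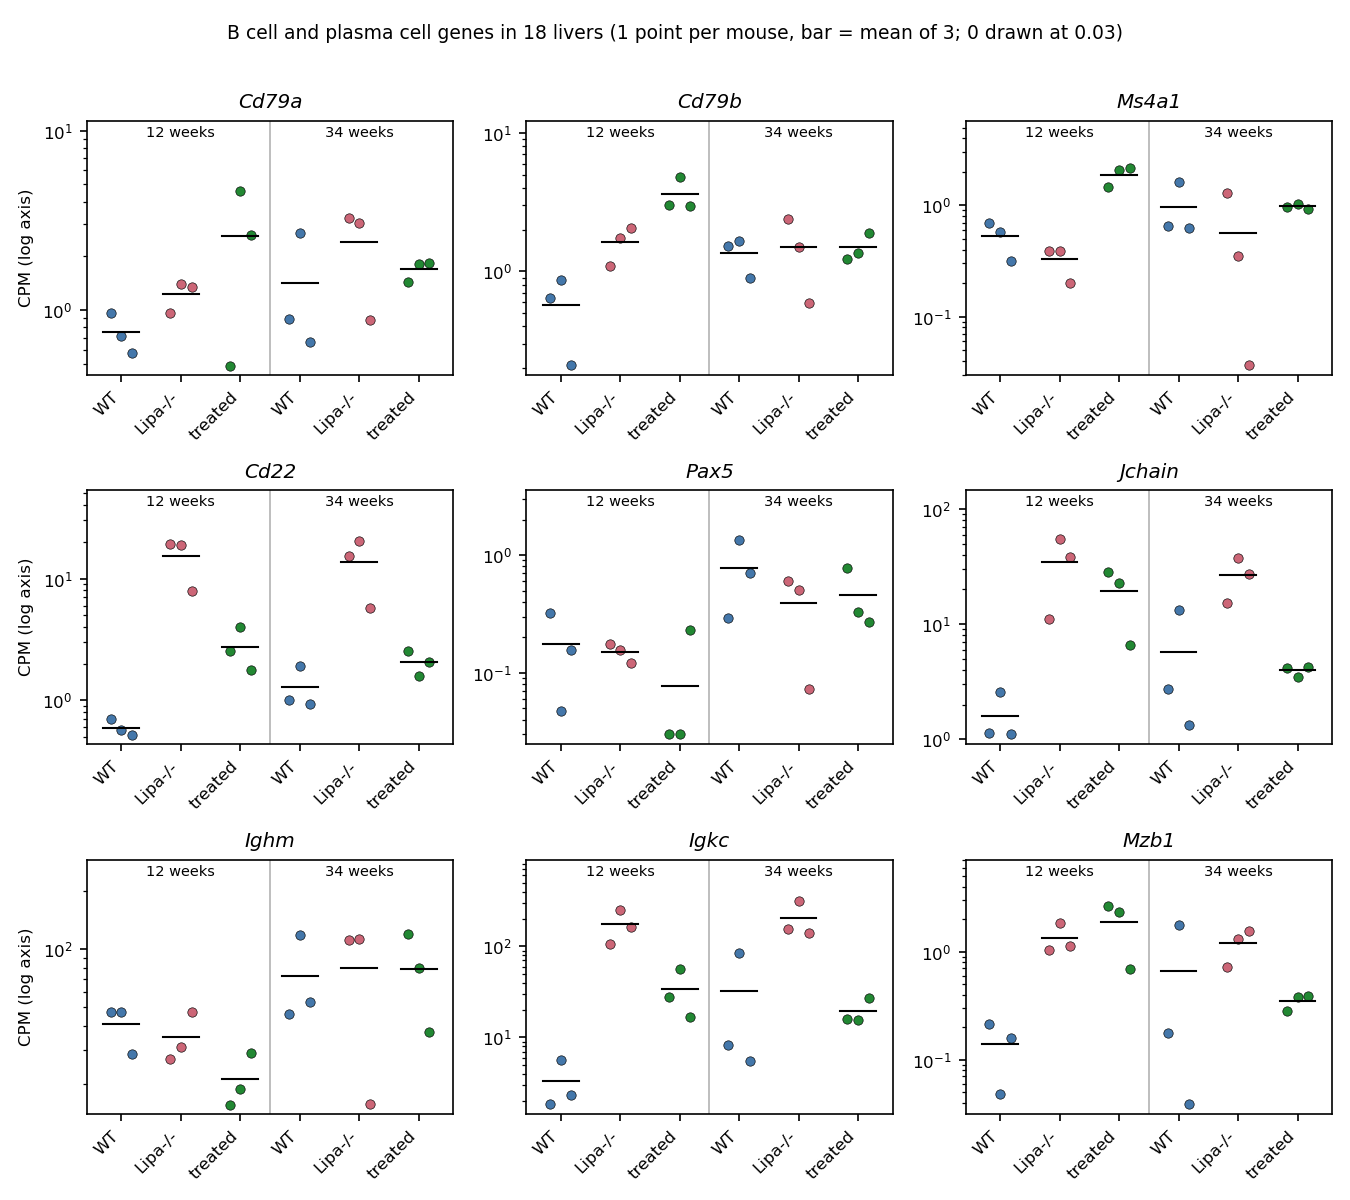
Level of each of the 9 members in every liver, in CPM on a log axis, with 1 point a mouse in the 6 groups, bars at group means, and zeros drawn at the foot of the axis. Igkc and Cd22 of the untreated Lipa-/- livers lie above all other livers at both times, Ighm overlaps between the 3 genotypes at each time, and WT mouse 2 at 34 weeks lies far above the other WT mice for Igkc and Mzb1.

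Per length, the order of the members changed with genotype. In WT livers at 12 weeks Ighm led at 26.7 ± 4.7 TPM (mean ± SD, n = 3), followed by Igkc at 9.22 ± 5.17 TPM. In Lipa-/- livers at 12 weeks Igkc led at 707 ± 307 TPM, and Jchain at 35.4 ± 22.5 TPM and Ighm at 32.8 ± 12.0 TPM came next, within each other's spread. In treated livers at 12 weeks Igkc stood at 66.2 ± 53.8 TPM and Ighm at 8.86 ± 3.12 TPM. At 34 weeks Igkc stood at 122 ± 177 TPM in WT livers, at 1072 ± 452 TPM in Lipa-/- livers and at 69.6 ± 22.7 TPM in treated livers, and Ighm at 60.7 ± 43.5, 105 ± 78.0 and 67.9 ± 41.1 TPM. Pax5 was the lowest member in all 6 groups. The ratio of Igkc to Ighm TPM was 0.169, 0.539 and 0.344 in the 12-week WT livers and 17.3, 36.4 and 14.6 in the 12-week Lipa-/- livers. It did not overlap between untreated Lipa-/- livers and any other group of the same time, and 0.1 is the smallest p that an exact two-sided permutation test of 3 against 3 mice allows.

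Counted over the members, 5 of 9 rose in Lipa-/- against WT livers at 12 weeks, where 20.2% of all tested genes rose, and 3 of 9 rose at 34 weeks, where 20.5% of all tested genes rose. The median log2 fold change of the members was 1.5 at 12 weeks, beside 0.02 over all tested genes, and 0.75 at 34 weeks, beside -0.03. Mzb1 rose by 3.22 ± 0.96 on the log2 scale at 12 weeks (adjusted p = 0.0131) and Cd79b by 1.5 ± 0.53 on the log2 scale (adjusted p = 0.0320). The Mzb1 call was lost without WT mouse 2 of that time (2.80, adjusted p = 0.0571), and the Cd79b call without WT mouse 1, WT mouse 3, Lipa-/- mouse 8 or Lipa-/- mouse 9 (1.11 to 1.59). Cd79a changed by 0.70 ± 0.66 (adjusted p = 0.430), Ms4a1 by -0.68 ± 0.75 (adjusted p = 0.508) and Pax5 by -0.18 ± 0.98 (adjusted p = 0.904). At 34 weeks these 3 changed by 0.75, -0.77 and -1.0, with adjusted p = 0.343, 0.383 and 0.318.

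The second question was how the treated Lipa-/- livers compare with both other genotypes. At 12 weeks 6 of 9 members were higher in treated than in WT livers, where 13.6% of all tested genes were higher, with a median of 2.21 for the members beside 0.06 for all genes. These were Cd79a (1.80 ± 0.67, adjusted p = 0.0447), Cd79b (2.64 ± 0.54, adjusted p = 0.00406), Cd22 (2.21 ± 0.52, adjusted p = 0.00698), Jchain (3.57 ± 0.80, adjusted p = 0.00559), Igkc (3.35 ± 0.85, adjusted p = 0.00943) and Mzb1 (3.72 ± 0.97, adjusted p = 0.0101). Ms4a1 differed by 1.83 ± 0.72 and did not pass (adjusted p = 0.0542), but it was called higher under DESeq2 and with only the groups compared. The Cd79a call was lost under 10 of the 15 alternatives tried. The Cd22 call was lost under limma (0.95, adjusted p = 0.141), and the Igkc call without WT mouse 3 of 12 weeks (adjusted p = 0.051 by edgeR). Those of Cd79b, Jchain and Mzb1 held under all alternatives. The treated and untreated comparisons with WT share the WT mice.

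At 34 weeks none of the 9 members was called between treated and WT livers by edgeR, and none had an unadjusted p under 0.05, while 0.22% of all tested genes were called in either direction. DESeq2 and limma also called 0 members. The log2 differences were 0.67 for Cd22, -0.55 for Jchain, -0.74 for Igkc and -0.94 for Mzb1, and the last 3 turned to 1.0, 1.52 and 1.78 without WT mouse 2, with adjusted p = 0.686, 0.553 and 0.621.

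Between treated and untreated Lipa-/- livers, 3 of 9 members were called at 12 weeks, where 41.5% of all tested genes were called in either direction. Cd22 was 5.48-fold lower in treated livers (-2.45 ± 0.46, adjusted p = 0.000419), Igkc was 5.18-fold lower (-2.37 ± 0.80, adjusted p = 0.0194), and Ms4a1 was 5.70-fold higher (2.51 ± 0.73, adjusted p = 0.00891). Under total-count scaling, which moved the median of all genes by -0.87 in this comparison, Ms4a1 differed by 1.66 and lost its call, and Jchain and Ighm fell. The Igkc call was lost without untreated mouse 8, treated mouse 10 or treated mouse 12 (-2.01, -2.28 and -2.08). Jchain differed by -0.85 (adjusted p = 0.310) and Mzb1 by 0.50 (adjusted p = 0.603). At 34 weeks 3 of 9 members were lower in treated livers, where 18.6% of all tested genes were lower: Cd22 by 6.63-fold (-2.73 ± 0.46, adjusted p = 0.000183), Jchain by 6.71-fold (-2.75 ± 0.74, adjusted p = 0.00697) and Igkc by 10.4-fold (-3.38 ± 0.83, adjusted p = 0.00361). Mzb1 differed by -1.75 ± 0.84 (adjusted p = 0.109) and was not called. It was called lower under total counts, DESeq2, only the groups compared and limma. The members' median difference was -0.73 at 12 weeks and -0.51 at 34 weeks, beside -0.19 and 0.03 over all genes.

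**Figure D2:**
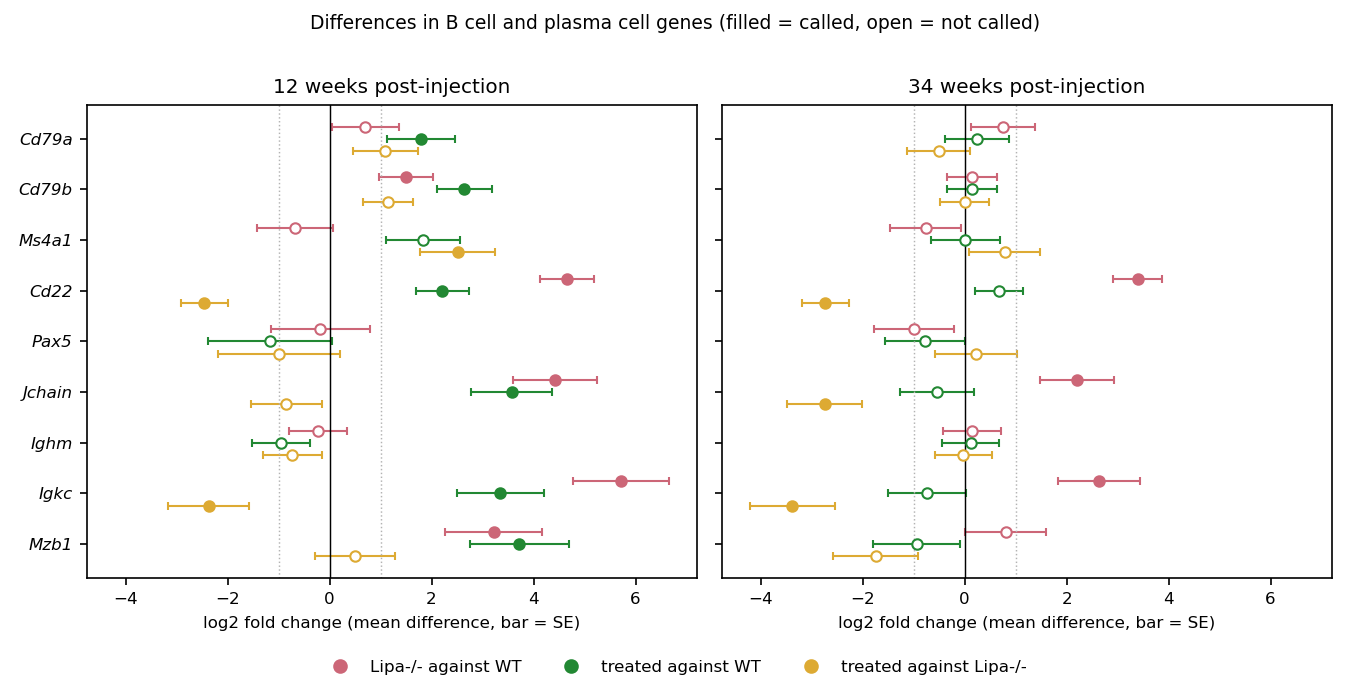
Log2 fold change of the 9 members in the 6 comparisons within a time, as points with bars of 1 SE on a linear axis, with filled points for calls. Cd22 and Igkc lie to the right of 0 in Lipa-/- against WT livers and to the left in treated against untreated Lipa-/- livers at both times.

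The third question was whether the members differ between the times. In untreated Lipa-/- livers none of the 9 members was called between 34 and 12 weeks by edgeR, with 0 at an unadjusted p under 0.05 and 0 by DESeq2 and limma, and 0.495% of all tested genes were called. In WT livers none was called by edgeR, where 0.323% of all tested genes were called, with 6 members at an unadjusted p under 0.05, 1 called by DESeq2 (Igkc) and 0 by limma. Igkc differed by 3.30 ± 0.85 in WT livers (adjusted p = 0.128), and by 1.04 without WT mouse 2. In treated livers 4 of 9 members were called, where 32% of all tested genes were called in either direction: Jchain (-2.27 ± 0.74, adjusted p = 0.0201), Mzb1 (-2.40 ± 0.86, adjusted p = 0.0313) and Cd79b (-1.27 ± 0.49, adjusted p = 0.0461) were lower at 34 weeks, and Ighm was higher (1.89 ± 0.59, adjusted p = 0.0159). None of these 4 calls remained without treated mouse 10 of 12 weeks or treated mouse 9 of 34 weeks.

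The difference between Lipa-/- and WT livers was itself compared between the times. It changed for none of the 9 members by edgeR, DESeq2 or limma, while 2 had an unadjusted p under 0.05 and 0.0619% of all tested genes were called. For Igkc it changed by -3.08 ± 1.12 (adjusted p = 0.360), and by -0.82 without WT mouse 2, and for Jchain by -2.22 ± 1.03 (adjusted p = 0.518). The difference between treated and WT livers was smaller at 34 weeks for 4 of 9 members, Cd79b, Jchain, Igkc and Mzb1, where 9.83% of all tested genes were called in that direction. Without WT mouse 2, Cd79b alone was called.

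Class of antibody was examined next in the constant-region genes, of which 13 have a row and 11 were tested, Ighm and Igkc included. In Lipa-/- over WT livers at 12 weeks 9 of 11 rose, all but Ighm and Ighd, with a median log2 fold change of 5.72, and at 34 weeks 5 of 11 rose, with a median of 1.69, where 20.2% and 20.5% of all tested genes rose. Without WT mouse 2 the 34-week count was 8 of 11.

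Igha, the IgA constant region (chr12:113218450-113223856, minus strand), was the class with the highest mean share in untreated Lipa-/- livers at both times. At 12 weeks it stood at 1.34, 4.21 and 3.40 CPM in WT livers, at 129, 253 and 120.1 CPM in Lipa-/- livers, and at 8.65, 17.8 and 5.06 CPM in treated livers. By 34 weeks it stood at 3.30, 8.04 and 2.14 CPM in WT livers, at 71.2, 283 and 181 CPM in Lipa-/- livers, and at 7.15, 8.41 and 2.53 CPM in treated livers. The untreated Lipa-/- livers lay far above the rest, and WT mouse 2 was the highest of its group. Igha rose 55.7-fold over WT at 12 weeks (5.80 ± 0.74, adjusted p = 1.2e-05) and 39.5-fold at 34 weeks (5.30 ± 0.72, adjusted p = 1.56e-05), or 66.0-fold without WT mouse 2 (6.04 ± 0.84, adjusted p = 3.52e-05). In treated livers it was 15.8-fold lower than in untreated Lipa-/- livers at 12 weeks (adjusted p = 0.000172) and 29.7-fold lower at 34 weeks (adjusted p = 3.73e-05), and still higher than WT at 12 weeks (1.82 ± 0.65, adjusted p = 0.0365).

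The IgG subclasses rose too. Ighg2c had 0, 11 and 3 reads in the 12-week WT livers and 368, 2158 and 959 reads in the Lipa-/- livers. At 34 weeks it had 7, 1082 and 3 reads in WT livers and 860, 1092 and 634 reads in Lipa-/- livers. The Ighg2c reads of WT mouse 2 thus lay within the range of the Lipa-/- livers. In CPM it lay just above the highest of them, at 42.6 against 42.2 CPM. At 12 weeks Ighg2c rose by 7.55 ± 1.71 on the log2 scale (adjusted p = 0.00216), Ighg2b by 6.05 ± 1.37 (adjusted p = 0.00220) and Ighg1 by 5.88 ± 1.19 (adjusted p = 0.00093). Ighg3 rose as well (adjusted p = 0.000298), from 0, 1 and 0 reads in WT livers to 122, 22 and 867 reads in Lipa-/- livers, and no fold is given against so few reads. At 34 weeks Ighg1 rose by 3.99 ± 1.03 (adjusted p = 0.00424), from 1, 141 and 3 reads in WT livers to 815, 781 and 1030 reads in Lipa-/- livers. It also rose without WT mouse 2 (adjusted p = 2.87e-05), and no fold is given against the 1 and 3 reads that then remain. Without WT mouse 2 Ighg2b (6.17 ± 0.97, adjusted p = 0.000112) and Ighg2c (6.96 ± 1.13, adjusted p = 0.000148) rose as well. With that mouse, Ighg2b differed by 1.56 (adjusted p = 0.236) and Ighg2c by 1.09 (adjusted p = 0.468).

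The lambda light chains also rose at 12 weeks: Iglc1, Iglc2 and Iglc3 by 5.24, 3.22 and 3.27 on the log2 scale in Lipa-/- over WT livers. The WT livers of that time held 3 to 4 reads of Iglc1, 5 to 8 of Iglc2 and 1 to 4 of Iglc3. The values for Iglc1 and Iglc3 are thus fitted near the level of 3 reads and set no size. Ighd, the class that naive B cells carry beside IgM, differed by -0.64 ± 0.76 (adjusted p = 0.541) at 12 weeks and by -0.53 (adjusted p = 0.554) at 34 weeks. In treated against untreated Lipa-/- livers 7 of 11 constant regions were lower and Ighd was higher at 12 weeks, where 25.3% of all tested genes were lower, and 6 were lower and 0 higher at 34 weeks, where 18.6% were lower. Against WT livers, 6 of 11 were higher in treated livers at 12 weeks, where 13.6% of all tested genes were higher. Of these 6, Ighg3 was set against 0 to 1 reads a WT library, Iglc1 against 3 to 4 and Iglc3 against 1 to 4. At 34 weeks 0 were called against WT by edgeR, where 0.22% of all tested genes were called in either direction. The smallest unadjusted p of the 11 was then 0.0674 (Ighg2c). At 34 weeks Ighg1 and Ighg2c differed there by -2.15 and -2.47, which turned to 2.17 and 3.40 without WT mouse 2, with no call either way.

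As a share of all heavy chain constant TPM, a measure chosen after these values were seen, Ighm made up 93.5%, 82.8% and 82.4% in 12-week WT livers and 9.96%, 4.6% and 12.0% in Lipa-/- livers. In treated livers of that time the Ighm share was 38.9%, 26.1% and 64.8%, between both other groups and without overlap. At 34 weeks it was 87.2%, 51.6% and 90.5% in WT livers, 35.0%, 16.7% and 3.92% in Lipa-/- livers, and 83.7%, 80.3% and 62.4% in treated livers, which overlapped with WT and not with untreated Lipa-/- livers. The Igha share was 56.9% ± 13.0 (mean ± SD, n = 3) in Lipa-/- and 9.74% ± 5.30 in WT livers at 12 weeks, and 53.2% ± 18.1 and 6.47% ± 2.37 at 34 weeks. Each of these differences between Lipa-/- and WT livers had an exact two-sided permutation p of 0.1, the smallest the design allows. The IgG share of the 34-week WT livers was 2.46%, 42.8% and 2.10%, and the Igha share was 9.21%, 5.08% and 5.12%. Light chain TPM exceeded heavy chain TPM in all 6 untreated Lipa-/- livers, by ratios of 1.51 to 2.13, and was below it in all 3 WT livers at 12 weeks, at 0.218 to 0.505. It also exceeded heavy chain TPM in all 3 treated livers at 12 weeks, by 3.39, 4.02 and 1.89. At 34 weeks the ratio was 0.732, 1.60 and 0.441 in WT livers and 0.525, 0.718 and 2.07 in treated livers.

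**Figure D3:**
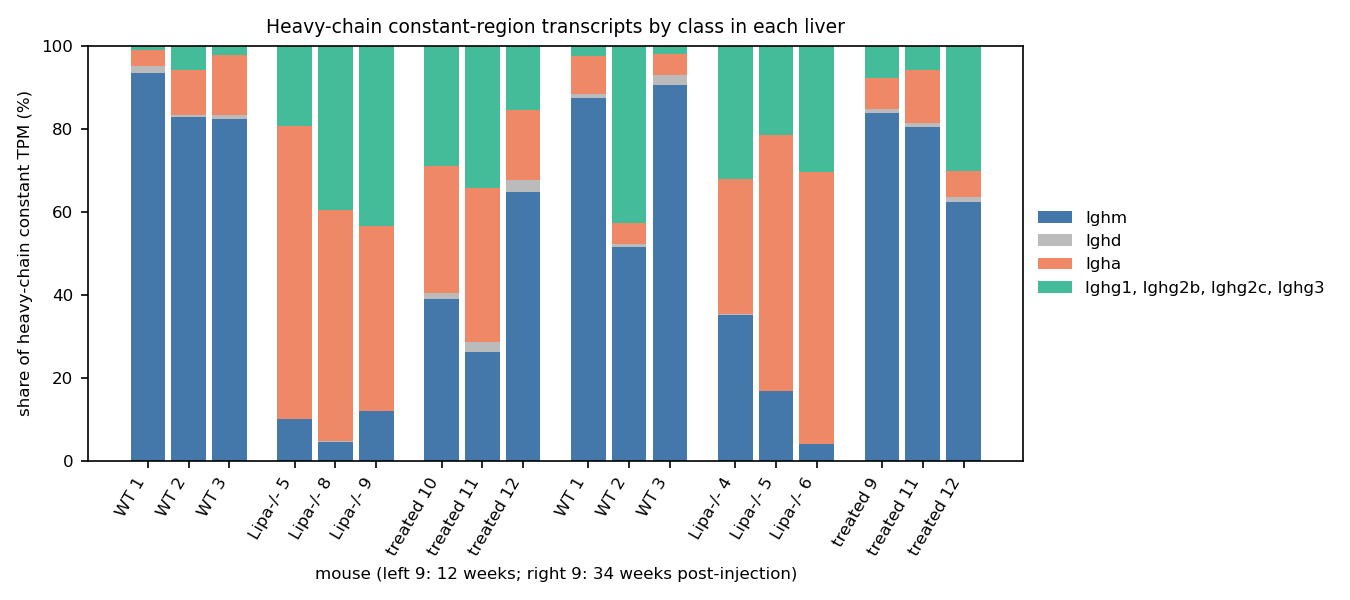
Share of heavy chain constant-region TPM held by each class, as stacked bars from 0 to 100% with 1 bar a mouse. IgM holds most of each WT bar, apart from 51.6% in WT mouse 2 at 34 weeks, and IgA and IgG together hold most of every untreated Lipa-/- bar.

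Variable segments are rearranged separately in every developing B cell and then spliced to a constant region in the RNA, so the number of segments with reads tells how widely the antibody RNA is spread over rearrangements. The table has 346 rows for variable segments. Rows with at least 10 reads numbered 0, 2 and 0 in 12-week WT livers, 21, 85 and 76 in Lipa-/- livers, and 4, 13 and 1 in treated livers. At 34 weeks they numbered 0, 41 and 1 in WT livers, 57, 80 and 55 in Lipa-/- livers, and 7, 3 and 7 in treated livers. The 6 untreated Lipa-/- livers thus held 21 to 85 rows. Of the other 12 livers WT mouse 2 at 34 weeks lay within that range, and the rest held 0 to 13 rows. These counts follow the number of antibody reads, which were 872, 3602 and 2621 over all variable segments in 12-week Lipa-/- livers and 35, 107 and 30 in WT livers.

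No single segment held the antibody reads of the Lipa-/- livers. The most abundant row was Iglv1 in Lipa-/- mouse 5 (69 of 872 reads) and mouse 8 (280 of 3602 reads), and Igkv10-96 in mouse 9 (188 of 2621 reads) at 12 weeks. At 34 weeks it was Igkv5-39 in mouse 4 (197 of 2116 reads) and mouse 6 (81 of 1845 reads), and Igkv4-57-1 in mouse 5 (176 of 3068 reads). In WT mouse 2 at 34 weeks it was Igkv3-2, with 208 of 1520 reads. Rows with at least 10 reads in all 3 mice of a group numbered 17 of the 102 found in any mouse at 12 weeks and 30 of 102 at 34 weeks in Lipa-/- livers. Variable segments resemble each other, and reads of one can be counted to another.

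**Figure D4:**
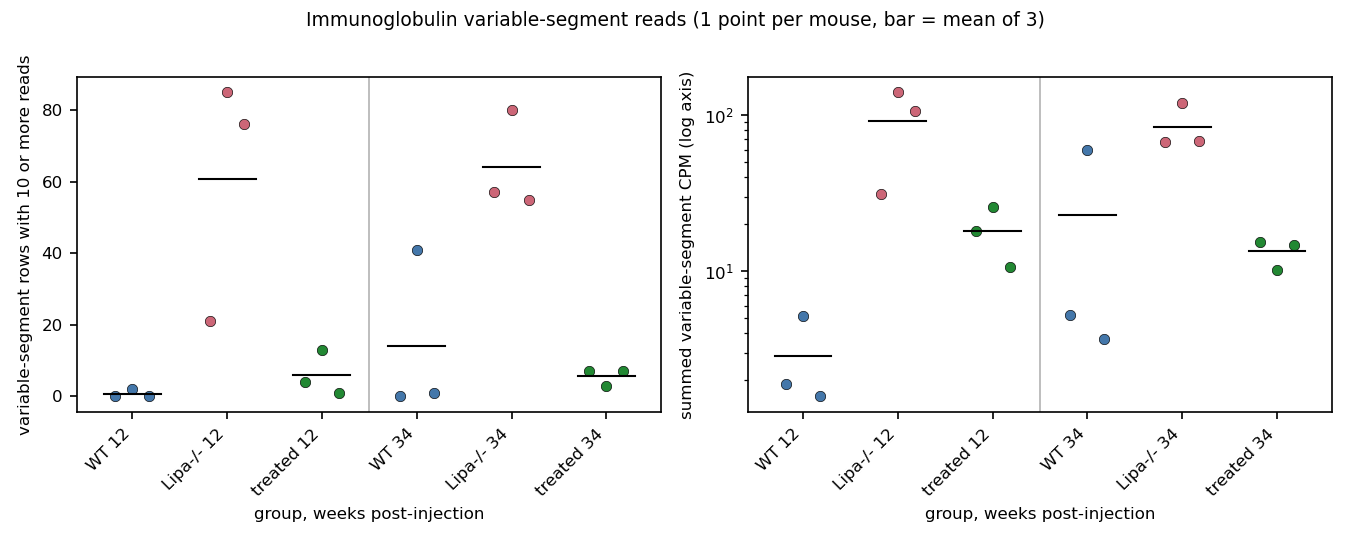
Number of variable-segment rows with at least 10 reads (left, linear axis) and summed variable-segment CPM (right, log axis) in each liver. Points are 1 a mouse in the 6 groups, with bars at group means. The untreated Lipa-/- livers lie between 21 and 85 rows, and all others lie between 0 and 13 apart from WT mouse 2 at 34 weeks at 41.

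Other genes of the B lineage were followed in lists, whose counts stand beside 20.2% of all tested genes that rose and 9.06% that fell in Lipa-/- over WT livers at 12 weeks, and 20.5% and 15.7% at 34 weeks. Of 15 other tested surface and receptor genes of B cells 5 rose at 12 weeks (median log2 fold change 0.76) and 5 rose at 34 weeks (median -0.02) in Lipa-/- over WT livers. Cd180, a Toll-like receptor relative of B cells and macrophages, rose from 0.519 ± 0.278 to 16.8 ± 5.33 CPM at 12 weeks (4.99 ± 0.44, adjusted p = 3.48e-07), and Cd37, a leukocyte tetraspanin, rose by 3.87 ± 0.40. Ly6d rose by 5.69 ± 1.27 and Fcrl1, an Fc receptor-like protein, by 2.89 ± 0.56.

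Signalling genes downstream of the B cell receptor that myeloid cells also use form a list of their own. Of 12 tested, 10 rose at 12 weeks (median 3.39) and 11 rose and 1 fell at 34 weeks (median 3.05). The adaptor Blnk rose from 1.07 ± 0.21 to 23.1 ± 2.94 CPM at 12 weeks (4.44 ± 0.35), and Plcg2, Vav1 and the kinase Syk rose by 4.51, 4.5 and 4.35. In treated against untreated Lipa-/- livers 10 of these 12 were lower at each time, where 25.3% and 18.6% of all tested genes were lower at 12 and 34 weeks.

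Of 12 B lineage transcription factors, 6 rose at 12 weeks (median 2.22) and 5 at 34 weeks (median 1.12), with none lower by edgeR, and 7 rose at 34 weeks without WT mouse 2. Pou2f2, Ikzf1 and Irf8, which other leukocytes also express, rose at both times, and Bcl11a rose at 12 weeks (adjusted p = 0.00279) from 0 to 2 reads a WT library. Of the 10 genes of precursor B cells 4 were tested, and 3 rose and 0 fell at 12 weeks (median 3.22), while 3 rose and 1 fell at 34 weeks (median 3.16). Il7r (7.0 ± 0.76) and Cd93 (4.26 ± 0.34) rose at 12 weeks, as did Ebf1 (adjusted p = 0.0247), with 1 to 2 reads a WT library. These 3 rose at 34 weeks too. Ebf1 is counted both here and among the transcription factors. Which cells gave the reads of the genes in these lists was not tested. Dntt, the polymerase that adds bases at the joints of antibody genes, differed by -1.0 at 12 weeks (adjusted p = 0.0691) and fell by 3.47 ± 0.47 at 34 weeks (adjusted p = 1.55e-05). The defining genes of that stage were at or near 0: Vpreb2 and Rag2 had 0 reads in every group, and Igll1 and Rag1 in 5 of the 6 groups. Of 6 germinal centre genes 3 were tested. S1pr2 rose at both times (2.31 ± 0.20 and 1.53 ± 0.20) and Mybl1 at 12 weeks (2.27 ± 0.70). Bcl6 fell by 2.13 ± 0.76 at 34 weeks (adjusted p = 0.0282), a call lost without WT mouse 2 (adjusted p = 0.132).

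Of 13 other tested genes of the plasma cell programme 3 rose and 1 fell at each time, with medians of 0.66 at both, a share near that of all tested genes. Without WT mouse 2, 5 rose at 34 weeks, with Irf4 (2.58 ± 0.85) and Cd38 (1.15 ± 0.35) added, both named after their values were seen. Slamf7, a surface receptor of plasma cells and other leukocytes, rose from 0.150 ± 0.077 to 18.2 ± 2.89 CPM at 12 weeks (adjusted p = 8.9e-07), and Prdm1, the plasma cell master regulator, rose too (adjusted p = 0.00154). No fold is given for this pair, since their WT means lay below the level of 3 reads. Ell2, an elongation factor, fell by 1.5 ± 0.22. Xbp1, the factor of the secretory apparatus, stood at 286 ± 49.2 CPM in WT and 192 ± 30.2 CPM in Lipa-/- livers at 12 weeks and did not pass the test. It was named after its values were seen, and hepatocytes express it too.

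Of 14 tested ligands and receptors of B cell survival and homing, 8 rose and 1 fell at 12 weeks (median 2.46), and 9 rose and 1 fell at 34 weeks (median 2.68). Tnfrsf13b, the receptor TACI, rose from 0.103 ± 0.006 to 4.96 ± 1.95 CPM at 12 weeks (adjusted p = 3.2e-05), with no fold given against 2 reads a WT library. Its ligand APRIL (Tnfsf13) rose by 4.48 ± 0.71, the chemokine receptor Cxcr4 by 5.39 ± 0.69, and lymphotoxin beta (Ltb) by 4.68 ± 0.58. The gene that fell was Cxcl13, the chemokine of B cell follicles, by 3.04 ± 1.05 at 12 weeks and 4.02 ± 1.02 at 34 weeks, named after its values were seen. Of 6 tested genes of antibody transport and Fc receptors 4 rose at 12 weeks (median 3.26), and at 34 weeks 4 rose and 2 fell (median 2.39). Fcer1g, Fcgr3, Fcgr1 and Fcgr4, receptors that myeloid cells use to bind antibody, were those that rose. The 2 that fell at 34 weeks were Pigr (-1.43 ± 0.31, adjusted p = 0.00111) and Fcgrt (-1.19 ± 0.22, adjusted p = 0.000254). Both were named after their values were seen.

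Markers of other blood cells moved in the same livers. Summed over the list, macrophage markers lay between 121 and 317 CPM in 12-week WT livers, between 2644 and 6078 CPM in Lipa-/- livers, and between 974 and 2711 CPM in treated livers, and between 221 and 486, 2183 and 3703, and 303 and 812 CPM at 34 weeks. Of the 7 genes 5 rose and 1 fell at 12 weeks and 4 rose and 2 fell at 34 weeks (1 fell without WT mouse 2), and none had 0 reads in a whole group. Pan-leukocyte markers lay between 17.1 and 24.4 CPM in WT, between 334 and 527 CPM in Lipa-/- and between 58.5 and 103 CPM in treated livers at 12 weeks, and all 4 rose in Lipa-/- over WT livers at both times. T cell markers lay between 3.51 and 7.70, 12.9 and 18.2, and 13.5 and 24.2 CPM in the same 3 groups, and 7 of 9 rose at 12 weeks and 5 at 34 weeks. Neutrophil markers lay between 0.681 and 2.15 CPM in WT and between 126 and 1563 CPM in Lipa-/- livers at 12 weeks, with 7 of 7 rising. Plasmacytoid dendritic cell markers, of which 4 of 5 tested rose at 12 weeks and 3 at 34 weeks, lay between 11.5 and 18.4 CPM in WT and between 25.8 and 41.6 CPM in Lipa-/- livers at 12 weeks. Of 6 erythroid markers 1 fell at each time and none rose, and of 6 hepatocyte markers 4 fell at 12 weeks and 5 at 34 weeks. The part that these cells have in the members' levels was not tested.

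Across all 18 livers the members fell apart in the same way as across the groups. On log2 CPM, the genes most like Cd22 were Arhgap19, Prkcb and Hpgds (Pearson r between 0.978 and 0.98), and Cd22 had r = 0.959 with the macrophage gene Cd68. With Cd68, r was also 0.905 for Igkc, 0.799 for Jchain and 0.588 for Mzb1, and at most 0.333 for the other members. Igkc was most like Aoah, Ccl19 and Tlr1 (r between 0.947 and 0.955), and Jchain like Ptprc, Marchf1 and Adgre1 (r between 0.929 and 0.938). Mzb1 was most like Ptprc, Ptprcap and Slamf9, at r between 0.819 and 0.842. In contrast, Cd79b was most like Trbc1, H2-DMb2 and H2-Ob (r between 0.826 and 0.900) and Cd79a like Gimap3, Stk39 and H2-DMb2 (r between 0.667 and 0.680).

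The other members had yet other partners. Ms4a1 was most like Clec4f, Vsig4 and Or1n1 (r between 0.838 and 0.843) and had r = -0.435 with Cd68, Pax5 was most like Zfp746, Rfx5 and Nrde2 (r between 0.829 and 0.900), and Ighm like Rgs16, Usp54 and Star (r between 0.739 and 0.793). Between members, r was 0.928 for Jchain and Igkc, 0.924 for Cd22 and Igkc, 0.901 for Jchain and Mzb1 and 0.843 for Pax5 and Ighm. These values describe 18 livers that share the differences between groups, and low counts of Pax5, Ms4a1 and Mzb1 add noise to theirs.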

How the data were processed

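Poly(A) RNA of 18 livers (6 groups of 3) was sequenced. The authors mapped reads to mouse transcripts of GRCm39 with Salmon and deposited estimated counts per gene and TPM, summed to genes with tximport (R 4.3.0); their deposited table of DESeq2 1.40.1 comparisons, with fold changes and p-values, was not used. Here estimated counts were rounded and fitted with edgeR 4.0.16 in R 4.3.3 (TMM, quasi-likelihood test, 6 group means in 1 model) for the 14533 of 35441 genes with more than 100 reads summed over libraries. A call needed a log2 fold change beyond 1 and a Benjamini-Hochberg adjusted p under 0.05; log2 fold changes are given ± SE. TPM was used for levels between genes. Libraries held 17527824 to 25833059 reads, and 3 reads, taken as the limit of detection, equal 0.0946 to 0.292 CPM. Groups came from the labels, and no libraries were identical. p-values measure the spread between mice. Alternatives were DESeq2 1.42.0 and edgeR with offsets for gene length, limma 3.58.1 on log2(TPM + 0.1), other scalings and filters, only the groups compared, a replicate block and each mouse left out. The fits were tested on simulated data.

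The members and the gene lists were chosen with earlier results of these data known. Named beside the members and all constant-region genes were up to 4 tested genes a list with the largest change between Lipa-/- and WT livers at either time, the 3 genes most correlated with each member (log2 CPM with a prior count of 2, mean of at least 1 CPM), and the most abundant variable-segment row of each mouse. Shared runs of 31 bases were counted in the reference transcripts. Results of some listed genes are not reported here.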

Additional observations from a re-analysis of the deposited data

Results flagged for a closer look

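For 4 members the difference between treated Lipa-/- and WT livers changed between 12 and 34 weeks, as tested by an interaction term in the edgeR fit. The change in the log2 fold change was -2.50 ± 0.73 for Cd79b (adjusted p = 0.0310), -4.12 ± 1.06 for Jchain (adjusted p = 0.0257), -4.08 ± 1.14 for Igkc (adjusted p = 0.0283) and -4.66 ± 1.30 for Mzb1 (adjusted p = 0.0283). At 12 weeks the treated livers lay above WT for all 4 genes, and at 34 weeks they overlapped with WT. Without WT mouse 2 of 34 weeks the changes were -2.33 for Cd79b (adjusted p = 0.0457), -2.57 for Jchain (adjusted p = 0.0518), -1.83 for Igkc (adjusted p = 0.0871) and -1.94 for Mzb1 (adjusted p = 0.224). Limma called none of the 4. The Mzb1 values are set against WT livers of 1 to 4 reads, apart from 45 reads in WT mouse 2 of 34 weeks.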

How the results depend on the processing

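The direction of the rise of Igkc, Jchain and Cd22 in Lipa-/- over WT livers at 12 weeks, and its call, held under all 15 alternatives. Counts of called members moved as follows. In treated livers between times, 4 became 2 under total counts and 1 under limma on log2(TPM + 0.1). In WT livers between times, 0 became 1 without a filter and 1 under DESeq2. The 4 members whose treated to WT difference changed between times became 0 with only the groups compared and 0 under limma. Mouse numbers are shared between different animals of the 2 times; correlations of same-numbered mice ran from -0.253 to 0.46, so the numbers do not pair them, and a fit with the replicate block left 0 of the 4 calls in treated livers between times and 0 of the 4 changed differences, and no other count moved by over 1.5 times.

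With 1 mouse left out, called members numbered 4 to 5 (Lipa-/- over WT, 12 weeks), 4 to 6 (treated over WT, 12 weeks), 2 to 3 (treated over untreated, 12 weeks), 1 to 4, 0 and 3 to 4 in the same comparisons at 34 weeks, 0 to 1 in WT, 0 in Lipa-/- and 0 to 4 in treated livers between times, and 0 and 0 to 4 for the changes of the Lipa-/- and treated differences. The 1 was without Lipa-/- mouse 5 of 34 weeks. The WT 1 was without 34-week mouse 1. For treated livers between times the count was 0 without 12-week mouse 10 or 34-week mouse 9, 1 without 34-week mouse 11, and 2 without 12-week mouse 11 or 34-week mouse 12. For the changed treated difference it was 0 without WT mouse 1 or 3 of 12 weeks, WT mouse 1 of 34 weeks, 12-week treated mouse 10 or 34-week treated mouse 9, 1 without WT mouse 2 or treated mouse 11 of 34 weeks, and 2 without treated mouse 11 of 12 weeks.

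Signs turned only for members not called there. In Lipa-/- over WT livers at 12 weeks, Pax5 turned to 1.495 (DESeq2), 0.98 (edgeR with length offsets), 0.51 (limma) and 0.26 (total counts), and Ighm to 0.25 (limma) and 0.26 (total counts); at 34 weeks Pax5 turned to 0.16 (limma). In treated against untreated livers, Cd79a turned to -0.42 (limma) and Mzb1 to -0.73 (limma) and -0.35 (total counts) at 12 weeks, and at 34 weeks Cd79b turned to 0.006 (filterByExpr) and 0.008 (no filter), and Pax5 to -0.93 (DESeq2), -0.95 (length offsets), -0.71 (limma) and -0.35 (total counts). In treated over WT livers at 34 weeks Igkc turned to 0.42 and Jchain to 0.23 (limma). The change of the Lipa-/- difference for Jchain turned to 0.34 with the block. With 1 mouse left out, values ran from -0.64 to 0.56 for Pax5 in Lipa-/- over WT livers at 12 weeks, and at 34 weeks from -0.34 to 0.53 for Cd79b and -0.17 to 0.69 for Ighm. In treated over untreated livers at 34 weeks they ran from -0.39 to 0.49 for Cd79b, -0.52 to 0.29 for Ighm and -0.40 to 0.64 for Pax5. In treated over WT livers at 34 weeks they ran from -0.10 to 1.13 for Cd79a, -0.089 to 0.318 for Cd79b, -0.31 to 0.67 for Ighm, -1.24 to 1.52 for Igkc, -1.02 to 1.00 for Jchain, -0.22 to 0.62 for Ms4a1 and -1.5 to 1.78 for Mzb1, and for Mzb1 in WT livers between times from -0.46 to 2.82. The cause was not tested.

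Scaling to total counts changed the share of higher calls over all genes from 69.1% to 87.2%, 53.1% to 24.4% and 39.0% to 8.92% at 12 weeks (Lipa-/- over WT, treated over WT, treated over untreated), and from 56.6% to 81.9%, 59.4% to 70.8% and 40.8% to 18.5% at 34 weeks; it moved the median log2 difference of all genes by 0.47, -0.39, -0.87, 0.63, 0.08 and -0.54 in these comparisons. Upper quartile scaling moved it by 0.18 at most (Lipa-/- over WT, 34 weeks). Counted at 3 reads, mean variable-segment rows were 4.33 in WT, 111 in Lipa-/- and 31.3 in treated livers at 12 weeks, and 115 and 33.0 in Lipa-/- and treated livers at 34 weeks. Depth limits Pax5, Ms4a1 and Mzb1, with 0 to 47 reads a library.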
